A study of Mus musculus with 12 samples.

Results

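Transcripts of 7 genes that bring sugars into hepatic metabolism were examined in mouse hepatocytes with and without a knockout of Ptprk, which encodes protein tyrosine phosphatase receptor kappa. The genes were taken by symbol, and each was found as 1 of the 52636 genes of the deposited table: the transporter genes Slc2a2, Slc2a1 and Slc2a9, and the enzyme genes Khk, Tkfc, Sord and Glyctk. Hepatocytes came from steatotic livers of 6 mice, 3 wild-type (WT) and 3 labelled as Ptprk knockout (KO). They were divided on a Percoll gradient and by centrifugation into fractions of low and of high fat content, and polyA RNA of each fraction of each mouse was sequenced. Each genotype thus has a low-fat and a high-fat group of 3 libraries, and all 4 groups came from fatty livers. The strain, age, sex and diet of the mice, and the tissue in which Ptprk was deleted, are not given in the sources used here.

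GLUT2, the product of Slc2a2, is a low-affinity carrier that lets glucose, galactose and fructose cross the hepatocyte membrane in either direction. Inside the cell, ketohexokinase (Khk) phosphorylates fructose, and triokinase (Tkfc) later phosphorylates the glyceraldehyde made from it so that it joins glycolysis. Sorbitol dehydrogenase (Sord) makes fructose from sorbitol, the second step of the polyol pathway, and glycerate kinase (Glyctk) phosphorylates glycerate, which can be made from glyceraldehyde. GLUT1 (Slc2a1) is a high-affinity glucose carrier, and GLUT9 (Slc2a9) carries urate, a product of the purine breakdown that follows rapid fructose phosphorylation.

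In the GENCODE M21 annotation of GRCm38 all 7 are protein-coding genes. Slc2a2 (ENSMUSG00000027690) lies on chromosome 3 from 28697903 to 28731359 and Slc2a1 (ENSMUSG00000028645) on chromosome 4 from 119108711 to 119137983, both on the plus strand. Slc2a9 (ENSMUSG00000005107) lies on chromosome 5 from 38349273 to 38503143 on the minus strand, and Khk (ENSMUSG00000029162) on the same chromosome from 30921431 to 30931248 on the plus strand. Tkfc (ENSMUSG00000034371) lies on chromosome 19 from 10587791 to 10605654 on the minus strand, and Sord (ENSMUSG00000027227) on the plus strand of chromosome 2 from 122234749 to 122265340. Glyctk (ENSMUSG00000020258) lies on chromosome 9 from 106152857 to 106158138 on the minus strand.

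The promoter windows of the 4 genes whose transcripts were lower in the high-fat library of every mouse are shown, since these are the members that share a direction between fractions. All 7 members matched the RefSeq promoter table (GRCm38.p6), whose windows run from 250 bases before to 50 after the transcription start. Bases are numbered from 1 at the 5′ end, and capitals mark the motif matches described after them.
Slc2a2, chr3:28697653-28697952, plus strand: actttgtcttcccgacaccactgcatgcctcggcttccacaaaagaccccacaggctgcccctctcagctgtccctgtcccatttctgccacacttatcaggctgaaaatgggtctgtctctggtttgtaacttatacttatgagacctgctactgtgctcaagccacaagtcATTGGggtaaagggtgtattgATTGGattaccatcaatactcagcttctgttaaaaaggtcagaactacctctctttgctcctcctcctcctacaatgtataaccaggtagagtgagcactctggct
Khk, chr5:30921309-30921608, plus strand: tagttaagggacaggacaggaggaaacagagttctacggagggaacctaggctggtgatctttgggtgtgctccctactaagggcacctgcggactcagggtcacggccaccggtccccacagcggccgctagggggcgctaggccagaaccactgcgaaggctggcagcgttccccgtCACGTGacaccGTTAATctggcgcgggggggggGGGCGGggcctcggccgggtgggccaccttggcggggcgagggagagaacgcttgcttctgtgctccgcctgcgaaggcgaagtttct
Tkfc, chr19:10604209-10604508, minus strand: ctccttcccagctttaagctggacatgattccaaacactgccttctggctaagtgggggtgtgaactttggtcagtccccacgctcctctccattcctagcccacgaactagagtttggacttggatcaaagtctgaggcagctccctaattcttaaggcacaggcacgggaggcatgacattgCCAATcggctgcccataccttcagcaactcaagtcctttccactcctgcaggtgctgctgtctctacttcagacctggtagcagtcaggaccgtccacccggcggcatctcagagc
Glyctk, chr9:106158089-106158388, minus strand: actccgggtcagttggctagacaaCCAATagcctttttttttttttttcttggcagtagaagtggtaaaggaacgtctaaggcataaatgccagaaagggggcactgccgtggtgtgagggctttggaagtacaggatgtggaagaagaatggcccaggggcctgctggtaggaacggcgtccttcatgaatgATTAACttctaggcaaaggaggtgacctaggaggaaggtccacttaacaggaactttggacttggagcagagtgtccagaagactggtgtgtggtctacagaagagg

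Motifs were searched on both strands as exact letters. The CCAAT box (CCAAT), found in 37.4% of 32851 mouse promoter windows of this length, was matched in Slc2a2 at bases 174 and 195 (minus strand), in Tkfc at base 185 and in Glyctk at base 25. The GTTAAT half-site of the HNF1 motif, in 7.10% of windows, was matched in Khk at base 191 and in Glyctk at base 194 (minus strand). Khk also held an E-box (CACGTG, in 7.15% of windows) at base 180 and a GC box (GGGCGG, in 35.7%) at base 213. No motif was matched in all 4 windows. CAAAGTCCA, a form of the HNF4 site found in 0.475% of windows, was matched in none of the 7 members. TATAAA, in 13.6% of windows, was matched only in Slc2a1 among the 7. Only for Slc2a2 and Glyctk is the RefSeq start that of the GENCODE gene model. For the other 5 members it lies inside the model, farthest for Slc2a9, so that a window placed at the GENCODE start would hold other bases.

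Values are deposited reads per gene scaled by the authors to 20 M per library, and are called reads per 20 M. Estimated depth was 15.1 to 25 M reads per library, and a level of 3 reads corresponds to 2.40 to 3.98 reads per 20 M, a limit that covers counting error only. Ptprk, the targeted gene, lay between 2174 and 2883 reads per 20 M in the 6 WT libraries and between 1117 and 1364 in the 6 KO libraries. Its log2 fold change in KO was -1.13 in low-fat libraries (limma adjusted p = 0.000978) and -0.98 in high-fat libraries (limma adjusted p = 0.00446), so that KO libraries kept a Ptprk signal. The high-fat call was lost without KO high-fat replicate 1 (limma adjusted p = 0.0776). The 10 hepatocyte markers, Alb and Ttr among them, together made up 4.01% to 4.87% of a library, and their ranges overlapped in all 4 groups.

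All 7 members passed the filter on low values (at least 10 reads per 20 M in at least 3 libraries), which 16563 genes passed. Levels between genes were compared per kilobase of annotated exon (GENCODE M21, GRCm38). Sord was the highest at a mean of 9053 reads per 20 M per kilobase over the 12 libraries, followed by Khk at 6923, Tkfc at 3698, Glyctk at 1926, Slc2a2 at 1749, Slc2a9 at 236 and Slc2a1 at 89.7. Sord exceeded Khk in 11 of 12 libraries and Glyctk exceeded Slc2a2 in 9 of 12, so the last pair did not separate beyond the spread between libraries. Every other neighbouring pair kept its order in 12 of 12 libraries. On the scale of reads per 20 M, not divided by length, Sord stood above 99.3% of the genes tested, Tkfc above 99.1%, Khk above 98.7%, Slc2a2 above 98.2% and Glyctk above 97.7%. Slc2a9 stood above 81.3% and Slc2a1 above 54.7%. The coefficient of variation over all 12 libraries ran from 8.37% for Glyctk to 29.4% for Slc2a1, with Tkfc at 25.2%.

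**Figure D1:**
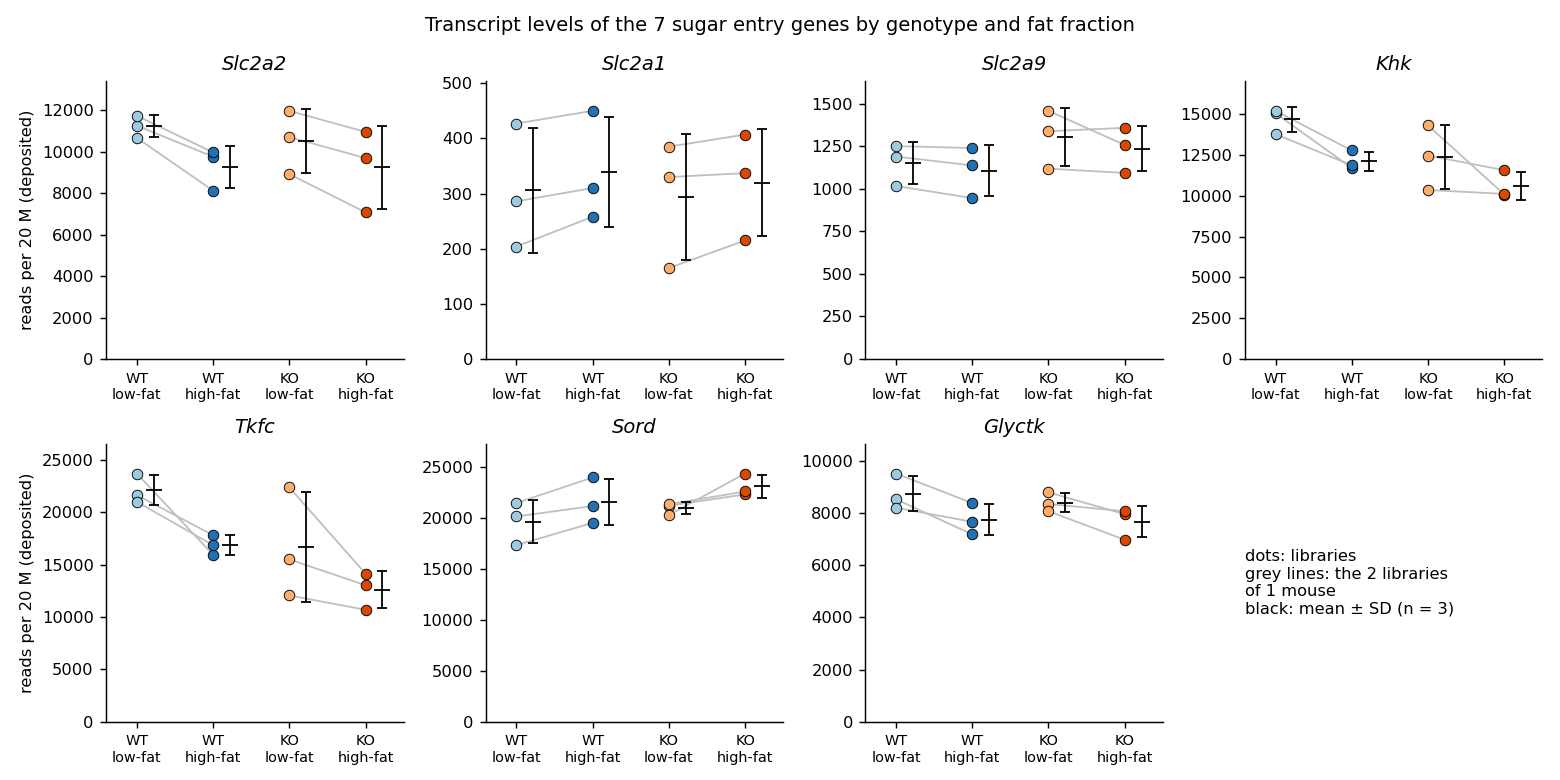
Deposited level (reads per 20 M, linear axes from 0) of each of the 7 genes in the 4 groups, with dots for libraries, grey lines joining both libraries of a mouse and black marks for the mean and SD of 3. The Tkfc panel spans 10695 to 23720 reads per 20 M, and its 3 WT low-fat libraries and KO low-fat replicate 1 lie above the other 8 libraries.

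The first comparison asked how the members differ between fat-rich and fat-poor hepatocytes of the same livers. Slc2a2, Khk, Tkfc and Glyctk were lower in the high-fat library in 6 of 6 mice, by 14.8% to 26.9% on average over both genotypes after rescaling between libraries. On the deposited scaling the differences were smaller. Their mean log2 difference over the 6 mice was -0.16 for Glyctk and -0.38 for Tkfc, against -0.23 and -0.45 after rescaling. None of the 7 members was called over both genotypes by limma when libraries were not matched by mouse (lowest adjusted p = 0.102), where 5.76% of all genes were called, most of them higher (0.773% were called lower). At an unadjusted p under 0.05, 4 of 7 members passed, all lower, against 8.27% of all genes lower. With the deposited scaling alone 3 of 7 did (2559 genes in all, in either direction). With a term for each mouse, Slc2a2 (limma adjusted p = 0.0414) and Tkfc (limma adjusted p = 0.0352) fell. In that fit 10.5% of all genes were called, counted in either direction. The median log2 fold change was -0.23 for the 7 members and -0.04 for all genes tested. Of the 10 hepatocyte markers 8 were lower and 2 higher, with a median of -0.17. By limma 1 of them was called higher and 0 lower, and 3 were lower at an unadjusted p under 0.05.

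Tkfc had the largest difference among the members. Its WT low-fat libraries held 23720, 21658 and 21021 reads per 20 M (22133 ± 1411, SD, n = 3), and its WT high-fat libraries 15949, 17828 and 16868 (16882 ± 940, SD, n = 3). The KO low-fat libraries held 22395, 12070 and 15514 and the KO high-fat libraries 14143, 10695 and 13044. In WT all high-fat libraries were below all low-fat libraries, whereas in KO the groups overlapped because KO low-fat replicate 2 was lower than 2 of the high-fat libraries. Within mice, Tkfc was lower in high-fat with log2 differences from -0.16 (KO replicate 2) to -0.89 (KO replicate 1). The log2 fold change over both genotypes was -0.45 (SE 0.15, 95% interval -0.77 to -0.13, limma adjusted p = 0.113).

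Khk, which commits fructose to this route, had values of 15059, 15208 and 13775 reads per 20 M in WT low-fat libraries (14681 ± 788, SD, n = 3) and 11702, 12777 and 11869 in WT high-fat libraries (12116 ± 579, SD, n = 3). KO low-fat libraries held 14311, 10358 and 12468, and KO high-fat libraries 10079, 10117 and 11572. The WT fractions did not overlap, and the KO fractions did, with KO low-fat replicate 2 close to the high-fat values. The log2 fold change over both genotypes was -0.32 (SE 0.10, 95% interval -0.55 to -0.10), with a limma adjusted p of 0.105, and of 0.0755 with a term for each mouse. When the correlation between libraries of a mouse was estimated instead (0.351), Khk, Tkfc and Glyctk were called, with limma adjusted p-values of 0.0394, 0.0301 and 0.0275. So were 11.5% of all genes, counted in either direction. Without KO low-fat replicate 2 and with no matching by mouse, Khk (limma adjusted p = 0.0271) and Tkfc (limma adjusted p = 0.0182) were called. That fit called 1125 of the 16563 genes tested, against 954 with all libraries. It was the only 1 of 12 such omissions that called either gene. In the others the limma adjusted p reached 0.223 for Khk and 0.242 for Tkfc.

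Slc2a2 held 10663, 11254 and 11728 reads per 20 M in WT low-fat libraries (11215 ± 534, SD, n = 3) and 8119, 9755 and 9965 in WT high-fat libraries (9280 ± 1011, SD, n = 3). Its KO low-fat libraries held 8913, 10698 and 11967, and its KO high-fat libraries 7070, 9688 and 10948. Replicate 1 was the lowest library of each of the 4 groups, and the KO fractions overlapped while the WT fractions did not. The log2 fold change over both genotypes was -0.32 (SE 0.13, 95% interval -0.60 to -0.03, limma adjusted p = 0.217 without and 0.0414 with a term for each mouse). Leaving out KO high-fat replicate 1 moved it to -0.20, more than 1.5 times closer to 0, in the fit without that term.

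Glyctk, the most even of the 7 genes, held 9522, 8532 and 8208 reads per 20 M in WT low-fat libraries (8754 ± 685, SD, n = 3) and 8389, 7188 and 7671 in WT high-fat libraries (7749 ± 604, SD, n = 3). KO low-fat libraries held 8799, 8356 and 8075 and KO high-fat libraries 7961, 8072 and 6982. After rescaling between libraries the fractions did not overlap in either genotype, although the deposited WT values did. The log2 fold change over both genotypes was -0.23 (SE 0.07, 95% interval -0.39 to -0.07), with a limma adjusted p of 0.102, and of 0.0516 with a term for each mouse. The antisense gene D030055H07Rik overlaps Glyctk on the opposite strand, and its level was between 0.653 and 0.687 times that of Glyctk in all 12 libraries. Whether the counting used strand is not given in the sources used here, so reads of Glyctk and of this partner cannot be told apart.

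Tkfc likewise overlaps Ddb1, a gene of DNA repair on the opposite strand, whose level was 0.320 to 0.622 times that of Tkfc. Ddb1 had a log2 fold change of -0.23 between fractions (limma adjusted p = 0.209). Slc2a2 overlaps 1700112D23Rik, which held 16 to 104 reads per 20 M. Slc2a9, Khk and Sord overlap no other annotated gene.

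A two-sided exact sign-flip test over the 6 mice gave p = 0.03125 for each of Slc2a2, Khk, Tkfc and Glyctk, the smallest value that 6 mice allow. Of all genes tested, 11.7% were lower in the high-fat library in 6 of 6 mice and 9.74% were higher in 6 of 6, and all of these reach the same p. The directions were the same with the deposited scaling alone and with median-of-ratios scaling. The WT mice alone allow no p under 0.25. In WT, 4 of 7 members had fractions that did not overlap, all lower (Slc2a2, Khk, Tkfc and Glyctk), against 8.75% of all genes. In KO this held for 1 of 7, Glyctk, against 5.74% of all genes.

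**Figure D2:**
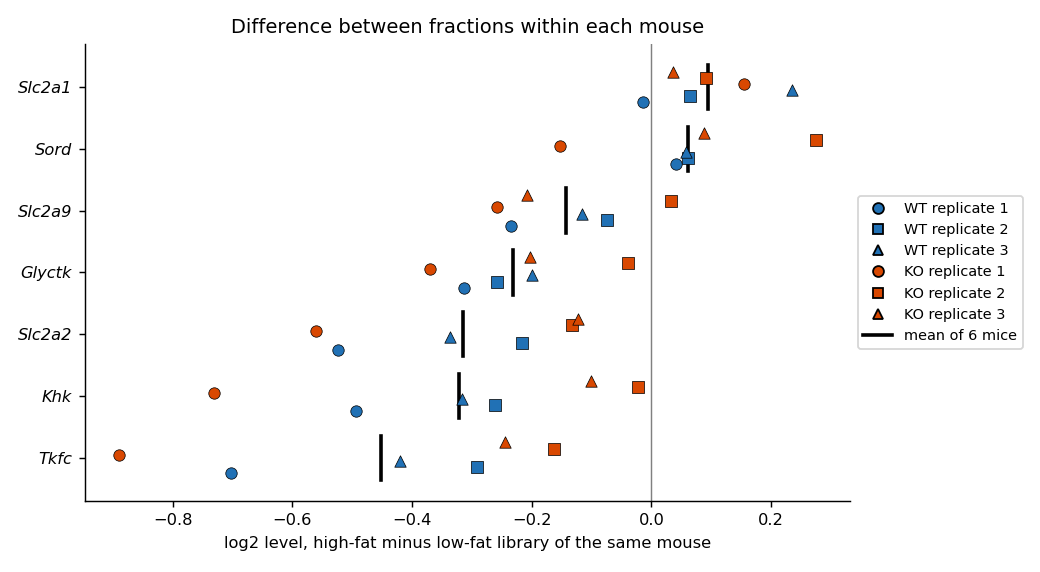
Difference in log2 level between the high-fat and the low-fat library of each of the 6 mice (horizontal axis) for each gene, with colours for genotype, shapes for replicate number and a black bar for the mean. Tkfc, Khk, Slc2a2 and Glyctk lie below 0 in all 6 mice, and for these 4 genes the replicate 1 mice of both genotypes have the lowest values.

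The size of the difference varied between mice. KO replicate 1 had the lowest value for Slc2a2 (-0.56), Khk (-0.73), Tkfc (-0.89) and Glyctk (-0.37) and WT replicate 1 the next (-0.52, -0.49, -0.70 and -0.31). KO replicate 2 had the value nearest 0 for Khk (-0.02), Tkfc (-0.16) and Glyctk (-0.04). Markers of other liver cells moved with the fractions. All 8 stellate cell, 8 sinusoidal endothelial and 9 Kupffer cell markers were higher in high-fat libraries over both genotypes. Of these 8, 8 and 7 were called by limma. Each of the 3 summed levels was higher in the high-fat library in 6 of 6 mice. The summed Kupffer markers ranged over 631 to 1277 (WT low-fat), 2160 to 10671 (WT high-fat), 450 to 722 (KO low-fat) and 1976 to 9307 reads per 20 M (KO high-fat). The log2 increase of that sum was highest in KO replicate 1 (4.14) and WT replicate 1 (3.33), the same mice as above. The nuclear-retained RNAs Malat1, Neat1 and Meg3, a sign of RNA make-up, also differed between mice. Their log2 differences between fractions were 1.59 in KO replicate 1, 1.19 in WT replicate 1 and -1.95 in KO replicate 2. WT replicate 2 stood at -0.01, WT replicate 3 at 0.22 and KO replicate 3 at 0.16. Their summed levels ranged over 27174 to 103226 (WT low-fat), 33872 to 153825 (WT high-fat), 29021 to 123596 (KO low-fat) and 31685 to 152104 reads per 20 M (KO high-fat), with 0 of 2 tested called by limma. The part of either list in the members' differences was not tested.

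Stellate sums ranged over 246 to 641 (WT low-fat), 1919 to 3406 (WT high-fat), 127 to 601 (KO low-fat) and 2292 to 2765 reads per 20 M (KO high-fat). Endothelial sums ranged over 2307 to 2454, 5037 to 12572, 1003 to 1975 and 4101 to 8035 in the same order. None of the markers of these 3 lists was at 0 throughout a group, and the largest of these sums was 0.0628% of a library. Cholangiocyte and erythroid sums were lower in the high-fat library in 6 of 6 mice, with Cftr at 0 in WT high-fat and Slc4a1 at 0 in KO high-fat libraries. In bulk RNA, fewer cells of a type and less RNA per cell cannot be told apart.

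The other 3 members showed no called difference between fractions. Slc2a9 held 1017, 1190 and 1252 reads per 20 M in WT low-fat and 946, 1138 and 1240 in WT high-fat libraries, and 1119, 1339 and 1459 in KO low-fat and 1094, 1359 and 1258 in KO high-fat libraries. The fractions overlapped in both genotypes, and the log2 fold change over both was -0.14 (95% interval -0.38 to 0.09, limma adjusted p = 0.505), with 5 of 6 mice lower. With a term for each mouse the Slc2a9 interval was -0.27 to -0.01 (limma adjusted p = 0.142). Sord held 17312, 20129 and 21451 reads per 20 M in WT low-fat and 19505, 21158 and 23956 in WT high-fat libraries. Its KO libraries held 21187, 20279 and 21332 in the low-fat and 22293, 24342 and 22579 in the high-fat fraction. The log2 fold change was 0.06 (95% interval -0.15 to 0.27, limma adjusted p = 0.772), an interval of 0.902-fold to 1.21-fold. With a term for each mouse the Sord interval was -0.12 to 0.24 on the log2 scale (limma adjusted p = 0.643).

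Slc2a1 was the lowest and most variable member. It held 286, 427 and 204 reads per 20 M in WT low-fat and 310, 450 and 258 in WT high-fat libraries, and 165, 385 and 330 in KO low-fat and 215, 407 and 337 in KO high-fat libraries. Replicate 2 was the highest library in all 4 groups, and the spread between mice was wider than the difference between fractions. The log2 fold change over both genotypes was 0.09 (95% interval -0.44 to 0.63, limma adjusted p = 0.87). With a term for each mouse its interval was -0.05 to 0.24 (limma adjusted p = 0.364). Both Slc2a1 and Sord were higher in the high-fat library in 5 of 6 mice after rescaling and in 6 of 6 on the deposited scaling. Leaving out KO low-fat replicate 1 turned the Slc2a1 difference to -0.07, in a fit not matched by mouse that kept its high-fat library. That mouse had the lowest mean Slc2a1 log2 level in KO (7.57, against 8.62 and 8.43). Within mice the log2 differences were -0.01, 0.07 and 0.24 in WT and 0.15, 0.09 and 0.04 in KO.

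The second comparison asked what the labelled knockout changed, within each fraction. None of the 7 members was called by limma in low-fat libraries, where 0.00604% of all genes (Ptprk alone) were called, nor in high-fat libraries, where the share was again 0.00604%. In the main fit no member reached an unadjusted p under 0.05 in either fraction, against 1.64% of all genes in low-fat and 1.97% in high-fat libraries. With a term for each replicate number, Slc2a9 and Tkfc did in low-fat libraries (495 genes in all). Slc2a9 did in high-fat libraries (614 genes in all). With the deposited scaling alone, 2 members did in low-fat and 1 in high-fat libraries (239 and 315 genes in all). Tkfc had the largest difference, a log2 fold change in KO of -0.44 in low-fat (95% interval -0.90 to 0.01) and -0.40 in high-fat libraries (95% interval -0.86 to 0.05). Its 3 KO high-fat libraries (10695 to 14143) were all below the 3 WT high-fat libraries (15949 to 17828). After rescaling this was the only such separation among the 7 members in either fraction, where 2.64% of all genes were separated and lower (2.79% in low-fat libraries). On the deposited values the Khk KO high-fat libraries (10079 to 11572) also lay below the WT high-fat ones (11702 to 12777), which overlapped after rescaling. In low-fat libraries KO replicate 1 (22395) lay within the WT range, and the log2 fold change of Tkfc was -0.71 without it and -0.21 without KO low-fat replicate 2.

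With the mean of both fractions of each mouse as 1 value, the Tkfc log2 fold change in KO was -0.42 (SE 0.16, 95% interval -0.80 to -0.05, limma adjusted p = 0.9999). It was the 1 member of 7 to reach an unadjusted p under 0.05 in that fit, where 2.23% of all genes did, and 0.00604% were called. With a term for each replicate number, or with the deposited scaling alone, 2 of 7 did (665 and 364 genes in all). Khk followed at -0.21 (95% interval -0.45 to 0.03) and Slc2a9 lay on the other side at 0.19 (95% interval -0.13 to 0.50). Sord was at 0.12 (95% interval -0.16 to 0.40). With 1 mouse left out these moved by over 1.5 times: Tkfc to -0.25 and Khk to -0.12 without KO replicate 2, Slc2a9 to 0.08 without WT replicate 1 and 0.30 without KO replicate 1, and Sord to 0.03 without WT replicate 1 and 0.22 without WT replicate 3. Slc2a2 (-0.05), Slc2a1 (-0.07) and Glyctk (-0.02) lay near 0, and the Slc2a1 interval of -0.79 to 0.65 leaves room for changes of either sign. An exact permutation test of 3 against 3 mice cannot go below p = 0.1. Endothelial marker sums were lower in KO low-fat than in WT low-fat libraries (1003 to 1975 against 2307 to 2454 reads per 20 M), with 0 of 8 markers called by limma. Over both fractions all 8 were lower in KO (median log2 fold change -0.56), 6 of them at an unadjusted p under 0.05 and 0 called by limma. All 9 Kupffer markers were lower in KO low-fat libraries (median -0.79), with 0 called by limma and 0 at an unadjusted p under 0.05. The part of these markers in the members' values was not tested.

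**Figure D3:**
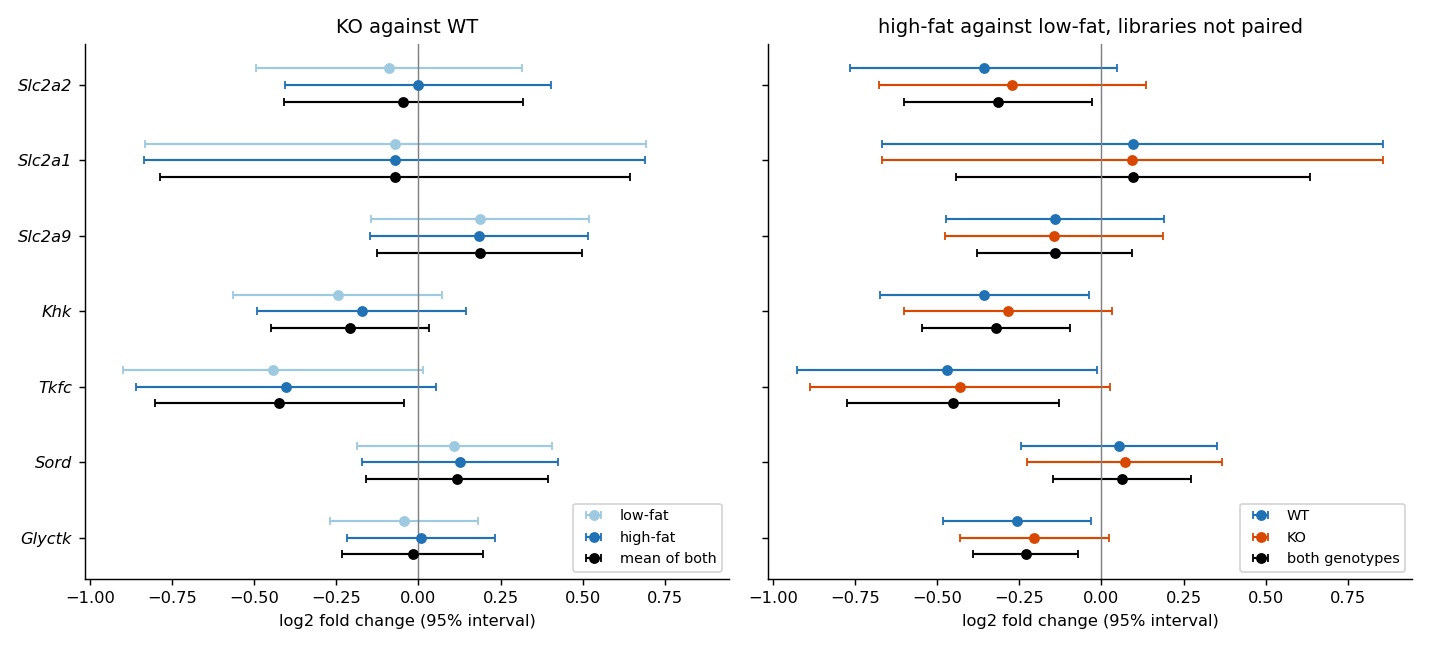
Log2 fold changes with 95% intervals for KO against WT (left, by fraction and as the mean of both) and for high-fat against low-fat libraries not paired by mouse (right, by genotype and over both). The black intervals over both genotypes lie below 0 for Slc2a2, Khk, Tkfc and Glyctk on the right, and on the left the Tkfc interval of the mean of both fractions (-0.80 to -0.05) is the only one that leaves out 0.

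The fraction difference was then compared between genotypes. In WT the log2 fold changes were -0.47 for Tkfc, -0.36 for Khk, -0.36 for Slc2a2 and -0.26 for Glyctk, and in KO they were -0.43, -0.29, -0.27 and -0.20. The first 3 of the KO values moved by over 1.5 times with single libraries: without KO low-fat replicate 1 they were -0.16 for Tkfc and -0.14 for Khk, without KO low-fat replicate 2 they were -0.66 and -0.43, and without KO high-fat replicate 1 Slc2a2 was at -0.03, and without KO high-fat replicate 3 at -0.44. The fits without a single library were not matched by mouse and kept the other library of that mouse. None of the 7 members was called in WT alone (0% of all genes) or in KO alone (0.894% of all genes). At an unadjusted limma p under 0.05, 3 of 7 members passed in WT (Khk, Tkfc and Glyctk, against 3.77% of all genes lower) and 0 of 7 in KO (2.08% lower). With a term for each mouse 4 of 7 did in WT and 3 of 7 in KO (3184 and 2342 genes in all, in either direction). With the deposited scaling alone 1 of 7 did in WT and 0 of 7 in KO (1660 and 1394 genes in all). The interaction of genotype and fraction lay between -0.003 and 0.09 for the 7 members, with 0 of 7 called, 0 of 7 at an unadjusted limma p under 0.05 (0.145% of all genes) and 0% of all genes called. Its 95% intervals were -0.61 to 0.68 for Tkfc and -0.38 to 0.52 for Khk, so a difference between genotypes as large as the fraction difference itself lay inside them.

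Across the 12 libraries Khk and Tkfc ran together. Pearson's r of their log2 levels was 0.93 over 12 libraries and 0.85 after the group means were removed, a description over libraries that share mice, scaling and fraction. The libraries ran from KO high-fat replicate 2 and KO low-fat replicate 2 at the low end for Tkfc to WT and KO low-fat replicate 1 at the high end. Slc2a2 and Slc2a9 formed another pair, with r = 0.73 and 0.88 within groups, and Slc2a9 and Sord had r = 0.69 and 0.81 within groups. Slc2a2 and Tkfc, although both lower in high-fat libraries, had r = 0.35 over 12 libraries and -0.12 within groups. Slc2a1 ran against Tkfc (r = -0.39, and -0.63 within groups).

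**Figure D4:**
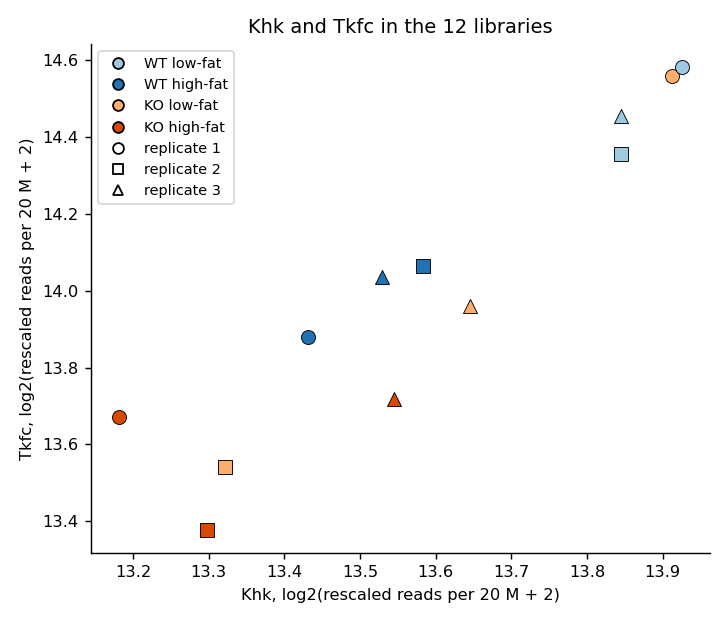
Rescaled level of Tkfc against that of Khk in the 12 libraries (both axes log2 of reads per 20 M plus 2), with colours for the 4 groups and shapes for replicate number. The points rise together (r = 0.93), and KO low-fat replicate 1 lies beside the WT low-fat libraries while KO low-fat replicate 2 lies beside the KO high-fat libraries.

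The genes most like each member were taken by Pearson's r of log2 level over the 12 libraries among 10516 genes averaging 100 reads per 20 M or more. Those near Khk included Gm26762 (r = 0.95) and Gapdh (0.93), and those near Tkfc included Gm26762 (0.94) and Khk (0.93). The closest to Slc2a2 were Gpr155 (0.98), Urad (0.97) and Slc10a1 (0.97), and to Slc2a9 Pdpr (0.97), Dsg2 (0.96) and Nfia (0.95). Sord was most like Cmbl (0.96), Creg1 (0.95) and Gm6652 (0.93), and Slc2a1 like Gm26669 (0.91), Zfp36l1 (0.91) and Id3 (0.90). Glyctk was most like its overlapping partner D030055H07Rik (0.99), then Lman1 (0.99) and Fem1a (0.98).

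Related genes were read from 5 lists in the comparison of fractions over both genotypes, where 5.76% of all genes were called. Among 21 enzymes of fructose, polyol and glyceraldehyde metabolism 1 was called, the aldo-keto reductase gene Akr1b8, which rose (log2 fold change 1.84, limma adjusted p = 0.00998) from 6.33 ± 2.52 to 28.3 ± 20.3 reads per 20 M in WT and from 3 ± 2 to 18.3 ± 3.51 in KO (SD, n = 3 each). With a term for each mouse 4 of the 21 were called, all higher, against 10.5% of all genes in either direction. They include the aldose reductase gene Akr1b3, which starts the polyol pathway that Sord completes and was chosen after its values were seen (log2 fold change 0.50, limma adjusted p = 0.125 without and 0.0210 with that term). Akr1b8 is closely related in sequence to Akr1b10 and Akr1b7, so its reads may be shared with theirs. The median of this list was -0.04, equal to that of all genes at 2 decimals.

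Of 16 further sugar transporters 12 were tested, while Slc2a7, Slc2a10, Slc5a9 and Slc45a1 did not pass the filter. Slc5a1, the sodium-coupled glucose and galactose carrier SGLT1, was the 1 called and fell by 1.22 on the log2 scale (limma adjusted p = 0.0244), from 11 ± 2.65 to 4 ± 1 reads per 20 M in WT and from 13.7 ± 3.06 to 5 ± 2.65 in KO (SD, n = 3 each), levels near the limit of 3 reads. With a pseudocount of 10 its log2 fold change was -0.65 and that of Akr1b8 1.08, both still called. The call was lost when WT low-fat replicate 2 or 3, WT high-fat replicate 1 or 2, or KO low-fat replicate 1 was left out (highest limma adjusted p = 0.0666). Slc2a5, the fructose carrier GLUT5, was chosen after its values were seen. It was lower in 6 of 6 mice, from 290 ± 55.4 to 199 ± 43.7 reads per 20 M in WT and from 250.3 ± 43.0 to 181 ± 28.6 in KO (SD, n = 3 each). Its log2 fold change was -0.57 (limma adjusted p = 0.0757, and 0.0215 with a term for each mouse). The median of the 12 was -0.16.

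Among 13 enzymes of galactose and mannose entry none was called by limma and 3 reached an unadjusted p under 0.05, where 18.9% of all genes did. Pmm1, a phosphomannomutase gene, had the largest positive value (log2 fold change 0.65, limma adjusted p = 0.231, and 0.0418 with a term for each mouse), and Ugp2, which makes UDP-glucose, the largest negative one (-0.22, limma adjusted p = 0.308). The list's median was -0.13. Among 12 genes of carbohydrate-responsive transcription and its targets none was called by limma and 2 reached an unadjusted p under 0.05, against the same 18.9%. Txnip, a thioredoxin-binding arrestin, stood at 0.65 (limma adjusted p = 0.298), and Pklr, the liver pyruvate kinase gene, at -0.50 (limma adjusted p = 0.109 without and 0.0131 with a term for each mouse). The median of these 12 was -0.17.

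Urate genes were examined because Slc2a9 carries urate. Of 17, 16 were tested and 4 were called. Abcc4, a urate and nucleotide exporter (log2 fold change 1.35, limma adjusted p = 0.0082), Ampd3, an AMP deaminase (1.19, limma adjusted p = 0.0243), and Ada, adenosine deaminase (1.19, limma adjusted p = 0.0419), rose. Their levels were low, between 9 and 76 reads per 20 M for Abcc4, and Ada was higher in 5 of 6 mice. The Ampd3 call was lost without WT low-fat replicate 1 or 3, WT high-fat replicate 1, KO low-fat replicate 1 or 3, or KO high-fat replicate 1 (highest limma adjusted p = 0.0676). The Ada call was lost without any 1 library other than WT high-fat replicate 3 or KO low-fat replicate 2 (highest limma adjusted p = 0.109). Slc17a4, an organic anion transporter, fell by 0.33 on the log2 scale (limma adjusted p = 0.0109). The list's median was -0.13. No gene of the 5 lists was called between KO and WT, within either fraction or over both, where 0.00604% of all genes were called.

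**Figure D5:**
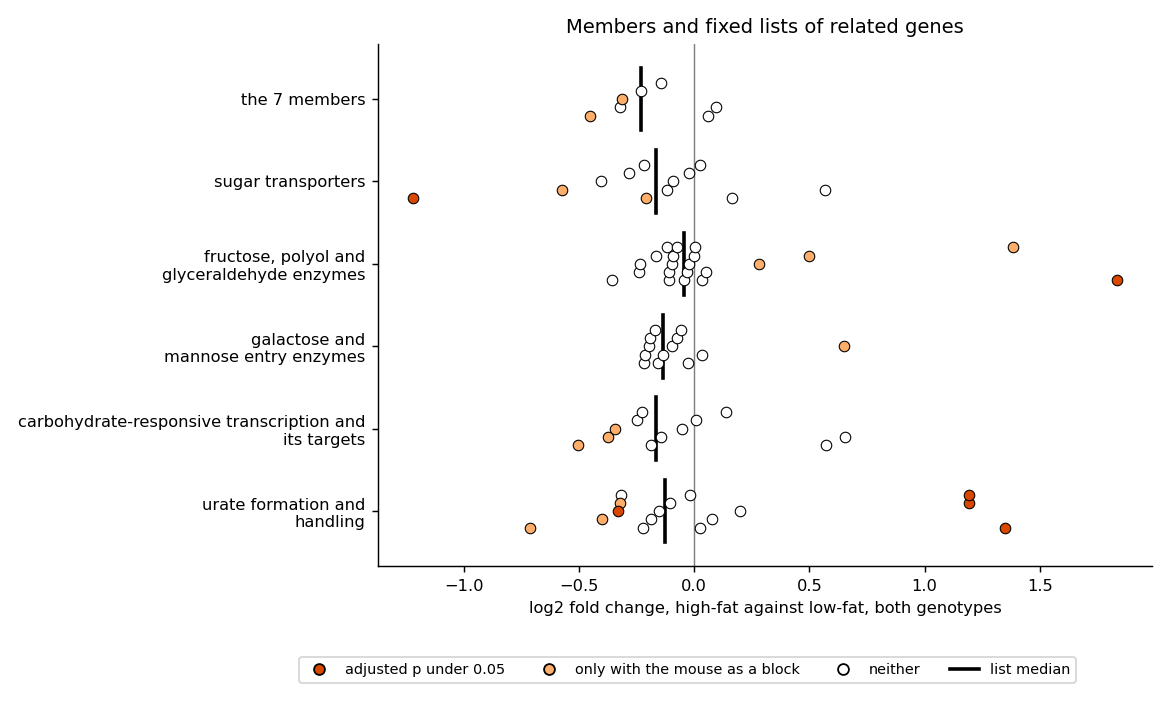
Log2 fold change between high-fat and low-fat libraries over both genotypes for the 7 members and the genes tested of the 5 lists, 1 dot per gene, coloured by whether it was called without or only with the mouse as a term, with a black bar at the list's median. The members' median (-0.23) is the lowest of the 6 bars, and the called genes Akr1b8 (1.84) and Slc5a1 (-1.22) lie far from their own lists' medians.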

How the data were processed

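RNA sequencing of polyA RNA was deposited for 12 libraries, and the processed table gives 1 value per gene and library. The deposited values are a score: from the values themselves, the authors scaled the reads per gene of each library to 20 M and rounded up to whole numbers, so they are not raw counts. The submitters' processing notes name the mouse build mm9; the aligner, the counting rule and its use of strand are not given in the sources used here. Of 52636 gene identifiers, 52403 were found in GENCODE M21 (GRCm38), which supplied positions and exon lengths.

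Libraries were rescaled by the trimmed mean of M values (30% and 5% trims) and analysed as log2(value + 2), which understates the change of low genes. Genes with at least 10 reads per 20 M in at least 3 libraries (16563) were fitted with limma 3.58.1 in R 4.3.3, with moderated variances, an intensity trend and a mean for each of 4 groups over all 12 libraries, or over 6 mouse means for KO against WT in both fractions. P-values are two-sided, adjusted by the Benjamini-Hochberg method over all genes tested, and called under 0.05. Replicates of a group are different mice by their labelled names. The fit was tested on simulated data.

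Both libraries of a mouse share its name in the labels, which is where the pairing comes from. Deviations from group means correlated between libraries of a mouse at 0.516 on average in WT (0.471 to 0.581) and 0.162 in KO (-0.0116 to 0.458). WT and KO mice share only replicate numbers, yet same-numbered low-fat libraries of WT and KO correlated at 0.314 on average (lowest 0.252) and high-fat ones at 0.233 (lowest -0.173). Alternatives were the replicate block (a term for each mouse, or for each replicate number between genotypes), an estimated same-mouse correlation, pseudocounts of 0.5 and 10, no filter, a filter at 100, deposited scaling alone, median-of-ratios scaling, only the libraries compared, and each library left out.

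The text names the 7 members and Ptprk, called genes of the 5 lists (up to 5 per list and comparison) or else each list's largest rise and fall, and the 3 genes most like each member; 1 gene is not reported here. Members and lists were chosen with earlier results of these data known.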

Additional observations from a re-analysis of the deposited data

How the results depend on the processing

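Of 413 member values recomputed under 9 settings, 407 kept their direction and side of the threshold, 5 became significant and 1 turned: Glyctk between KO and WT in high-fat libraries was -0.0147 with the deposited scaling alone against 0.00823. With a term for each mouse, 169 genes were called between fractions in WT (0 without) and 353 in KO (148 without). Over both genotypes 1731 genes were called (954 without), 2 members among them. With a term for each replicate number, which WT and KO mice share only as a label, 0 genes were called between KO and WT over both fractions (1 without). In that fit 665 genes had an unadjusted limma p under 0.05. Neither term changed any other member's call. An estimated same-mouse correlation gave 383, 528 and 1913 genes between fractions and 3 members. A pseudocount of 10 gave 1 gene in WT. A filter at 100 gave 35 genes in KO and 333 over both genotypes. Fits of only the libraries compared called 0 genes by limma between fractions in KO (1385 at an unadjusted p under 0.05) and 0 between KO and WT in high-fat libraries (222 at an unadjusted p under 0.05), where Ptprk had an adjusted p of 0.468. With no filter, Ada had an adjusted p of 0.0746.

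With 1 library left out, the count of genes called between fractions was 0 to 1 in WT, 0 to 75 in KO (each of its 6 libraries moved it) and 606 (without KO low-fat replicate 1; 608 without KO high-fat replicate 1) to 1125 over both genotypes, with 0 to 2 members called. Between KO and WT it was 0 (without KO high-fat replicate 1) to 1 in high-fat libraries and 0 over both fractions whichever mouse was left out. An arm left with fewer mice was assumed to vary like the others. Some member log2 fold changes changed sign. Between fractions, Slc2a1 ranged from -0.13 to 0.30 in WT, -0.24 to 0.41 in KO and -0.0731 to 0.25 over both, and Sord from -0.0469 to 0.15 in WT. Between KO and WT, Slc2a1 ranged from -0.30 to 0.26 (low-fat), -0.28 to 0.25 (high-fat) and -0.28 to 0.26 (both), Slc2a2 from -0.17 to 0.24 (high-fat) and -0.18 to 0.12 (both), and Glyctk from -0.12 to 0.0256, -0.0489 to 0.0541 and -0.0748 to 0.0347 in the same order as Slc2a1. The interaction ranged from -0.0831 to 0.34 for Slc2a2, -0.34 to 0.33 for Slc2a1, -0.12 to 0.15 for Slc2a9, -0.0618 to 0.22 for Khk, -0.18 to 0.31 for Tkfc, -0.0820 to 0.12 for Sord and -0.0174 to 0.14 for Glyctk. Between fractions and for the interaction, these fits did not match libraries by mouse and kept the other library of the mouse. Within the KO mice the Slc2a1 log2 differences between fractions were 0.15, 0.09 and 0.04. The cause of these changes was not tested. Depth limits Slc5a1 and Akr1b8, genes with few reads in these libraries.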
